A study of Homo sapiens with 2 samples.

Results

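The 9 mRNAs described here, GSG1L, CHD3, ABL2, CXXC4, ARIH1, BTF3L4, C15orf40, AAMDC and CETN2, stood high in ribosome profiling relative to RNA sequencing of SW13 cells, a human cell line derived from an adrenal adenocarcinoma. They were picked by symbol from the 23608 gene rows of the authors' table, on the strength of those same ratios, so their ratios are given as a description with no test. Both libraries, 1 of ribosome profiling and 1 of RNA sequencing, came from 10000000 cells transfected at 80% confluence with 5 µg of the plasmids Add2-Mhrt779 and Add2-Hotair, which carry murine long non-coding RNAs, and collected after 48 hours. No untransfected library was analysed here. The ribosome profiling library holds ribosome-associated RNA fragments prepared with the ARTseq kit, and the RNA sequencing library holds total RNA converted with the same kit. All 9 genes had a mean of at least 10 FPKM (fragments normalised for transcript length and library size) over both libraries, as did 2734 genes in all, the tested genes, of which 2259 code for proteins. There were no replicates, so no value has a replicate error.

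Ribosome profiling reads the short stretches of RNA that a ribosome shields from nuclease, and total RNA sequencing reads the whole pool of transcripts. The ratio of both is commonly used as a measure of how densely ribosomes sit on an mRNA. It depends on every fragment being assigned to the gene it came from, and nuclease-trimmed fragments are short, so that repeated sequence is harder to place than in full-length reads. Fragments of ribosomal RNA are known to be abundant in such libraries.

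What the 9 genes share was looked for first in their annotated transcripts. In GENCODE release 29, 6 of the 9 have a protein-coding transcript with an unbroken run of at least 21 bases made of the triplet GGC, in any phase, or of its complement GCC. The runs are shown because 5 of them hold, on one strand or the other, the same stretch of 24 bases, GGT followed by 7 GGC units. Capitals mark the run, and each sequence is written 5-prime to 3-prime on the strand of the mRNA.
ARIH1: ggtGGCGGCGGCGGCGGCGGCGGCGGtgg
CXXC4: ggtGGCGGCGGCGGCGGCGGCGGCGGCagc
ABL2: cggtGGCGGCGGCGGCGGCGGCGGCGttgg
CHD3: ttcCCGCCGCCGCCGCCGCCGCCGCCacc
GSG1L: cccCCGCCGCCGCCGCCGCCGCCGCCacc
BTF3L4: gctcCCGCCGCCGCCGCCGCCGCCGtcgt
The shared stretch: GGTGGCGGCGGCGGCGGCGGCGGC

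ARIH1, CXXC4 and ABL2 hold the stretch as written, and CHD3 and GSG1L hold its reverse complement. In BTF3L4 the bases beside the run differ, and the stretch is absent. The run lies in the coding sequence of ARIH1 (bases 549 to 571 of a transcript of 21681 bases), CXXC4 (923 to 946 of 5565), CHD3 (221 to 243 of 7356) and GSG1L (285 to 307 of 4916). It lies in the 5-prime untranslated region of BTF3L4 (157 to 177 of 4703) and of ABL2 (31 to 52 of 2140). In ABL2 and CHD3 only 1 of 8 coding transcripts has it, against 2 of 4 in GSG1L and BTF3L4, 2 of 3 in ARIH1 and the only one in CXXC4. The transcripts of C15orf40, AAMDC and CETN2 have no such run, not even one of 12 bases.

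The proteins made from these mRNAs have different roles. GSG1L, a claudin-like membrane protein that is an auxiliary subunit of AMPA receptors in brain, had 460.2 FPKM in ribosome profiling and 21.97 FPKM in RNA sequencing. It was 15.3-fold above the median tested gene, a fold that is computed after adding 1 FPKM to each value, as are all folds below unless the authors' deposited table is named. CHD3, a chromatin-remodelling ATPase of the NuRD complex, had 353 FPKM in ribosome profiling and 33.7 FPKM in RNA sequencing, which is 7.80-fold above the median gene. CXXC4, a zinc-finger protein that binds Dishevelled and restrains Wnt signalling, had 194 FPKM in ribosome profiling and 16.2 FPKM in RNA sequencing, 8.64-fold above. ARIH1, a ubiquitin ligase that works with cullin-RING ligases, had nearly the same pair of values as CXXC4, with 191 FPKM in ribosome profiling and 17.2 FPKM in RNA sequencing, 8.05-fold above. ABL2, a tyrosine kinase that acts on the actin cytoskeleton, had 332 FPKM in ribosome profiling and 100.4 FPKM in RNA sequencing, 2.51-fold above. It is the most abundant of the 9 in total RNA and the one with the lowest ratio.

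The other members had lower levels in both libraries. BTF3L4, a close relative of the nascent polypeptide-associated complex subunit BTF3, had 64.5 FPKM in ribosome profiling and 4.45 FPKM in RNA sequencing, 9.18-fold above the median gene. C15orf40 had 33.9 FPKM in ribosome profiling and 1.03 FPKM in RNA sequencing, 13.1-fold above. AAMDC, named for its association with adipogenesis, had 25.7 FPKM in ribosome profiling and 3.67 FPKM in RNA sequencing, 4.38-fold above. CETN2, a calcium-binding centrin of the centriole that also belongs to the XPC complex of DNA repair, had 20.7 FPKM in ribosome profiling and was listed at 0 in RNA sequencing, so no fold is given. These 4 genes passed the filter on mean FPKM through ribosome profiling alone, which obliged them to have a high ratio. The other 5 had at least 10 FPKM in RNA sequencing as well. For scale, the glycolytic enzyme GAPDH had 1708 FPKM in ribosome profiling and 1192 FPKM in RNA sequencing, and the cytoskeletal actin ACTB had 885 and 759 FPKM in the same order.

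**Figure D1:**
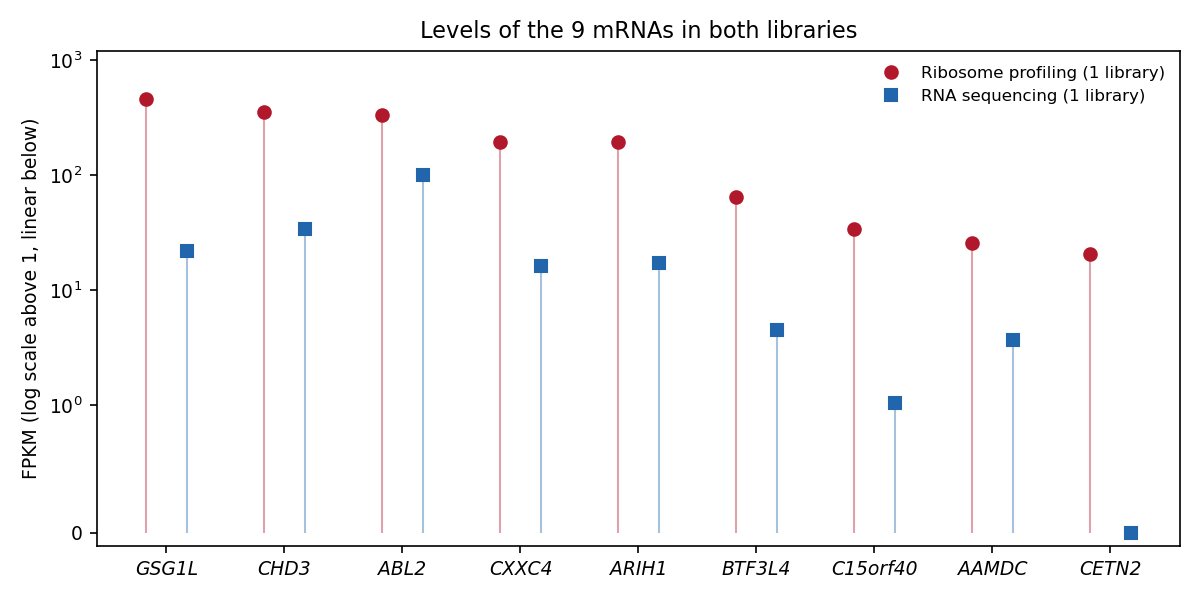
FPKM of each of the 9 mRNAs in the ribosome profiling library (red circles) and the RNA sequencing library (blue squares), 1 library each, on an axis that is logarithmic above 1 and linear below. In each gene the ribosome profiling value is the higher one, from 460.2 FPKM for GSG1L to 20.7 FPKM for CETN2, which is listed at 0 in RNA sequencing.

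Of the 8 members above 0 in both libraries, 7 had a ratio 4 or more times that of the median tested gene. That was true of 1.55% of tested protein-coding genes and of 4.86% of all tested genes. In the other direction, 3.98% of tested protein-coding genes and 9.8% of all tested genes were at least 4-fold below it. Since the ratio chose the members, nothing is read from this count. The members were not simply the highest rows. Among the 15 protein-coding genes of highest ratio, 7 are members, with CETN2 placed by its ratio with the pseudocount, and the 8 others are GAGE12G, the joint row of XAGE2 and XAGE2B, PAM16, SLC31A2, SLCO3A1, HS3ST4, ZIC5 and GAS6. AAMDC took rank 32, next to CHCHD5 with a log2 ratio of 2.14 above it and SIAE with 2.09 below it. ABL2 took rank 117, so that 116 protein-coding genes had a higher ratio. In RNA sequencing the members were spread from rank 197 for ABL2 to rank 2258 for CETN2, and in ribosome profiling from rank 61 for GSG1L to rank 1238 for CETN2.

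**Figure D2:**
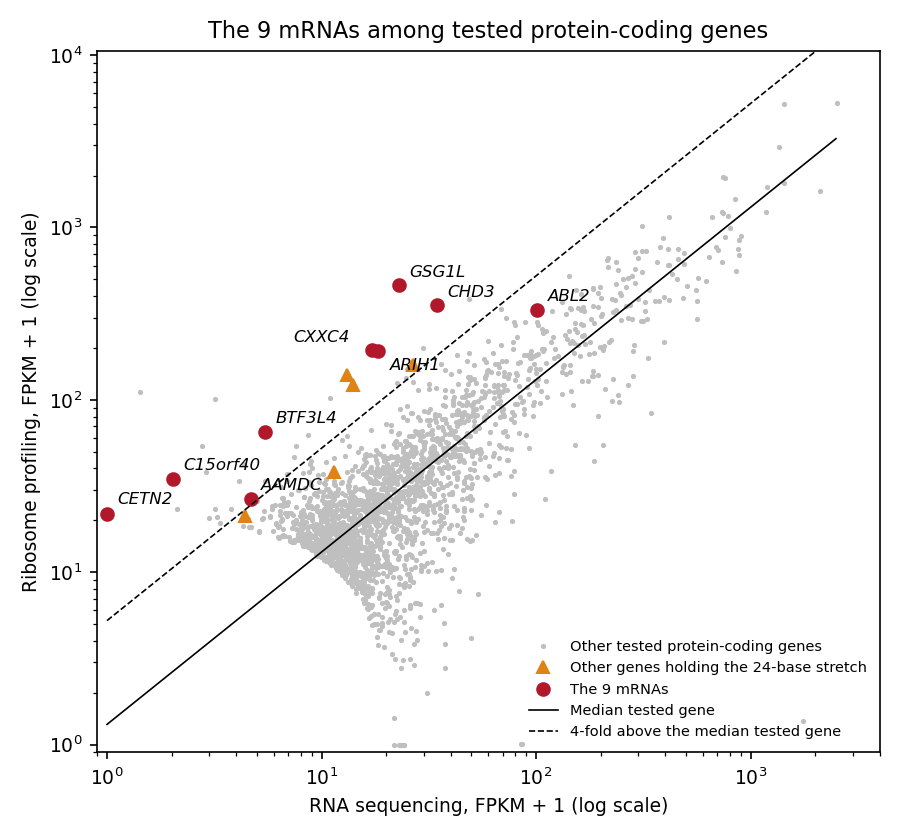
Level in ribosome profiling against level in RNA sequencing (FPKM + 1, both axes logarithmic) for tested protein-coding genes with a GENCODE coding transcript. The solid line marks the median tested gene and the dashed line 4-fold above it, all members but ABL2 lie on or above the dashed line, and the 5 other genes that hold the 24-base stretch (triangles) also lie above the solid line.

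The authors' model gave the ratios errors of very different size. In the authors' deposited table BTF3L4 had a log2 ratio of 3.86 (standard error 0.64, q = 1.79e-06) and was called significant. GSG1L was called in the authors' deposited table as well, with a log2 ratio of 4.39 (standard error 1.16, q = 0.0187). The authors' deposited table made no call for CXXC4 (log2 ratio 3.58, q = 0.0827), ARIH1 (log2 ratio 3.47, q = 0.102) or CHD3 (log2 ratio 3.39, q = 0.173). Their 95% intervals from the authors' deposited table stayed above 0, with lower ends of 1.37, 1.28 and 0.998. The intervals of C15orf40, AAMDC and ABL2 from the authors' deposited table included 0, with lower ends of -0.24, -0.45 and -0.51. C15orf40 had both the highest ratio, 5.03, and the largest standard error, 2.69, of the 8 in the authors' deposited table. CETN2 had p = 0.0139 and q = 0.216 in the authors' deposited table and no finite ratio. Across the rows with status OK in the authors' deposited table, 1.3% were called, and 0.412% were called with the higher value in ribosome profiling. The standard error was taken as the absolute ratio divided by the absolute deposited statistic, and it holds no spread between cultures.

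**Figure D3:**
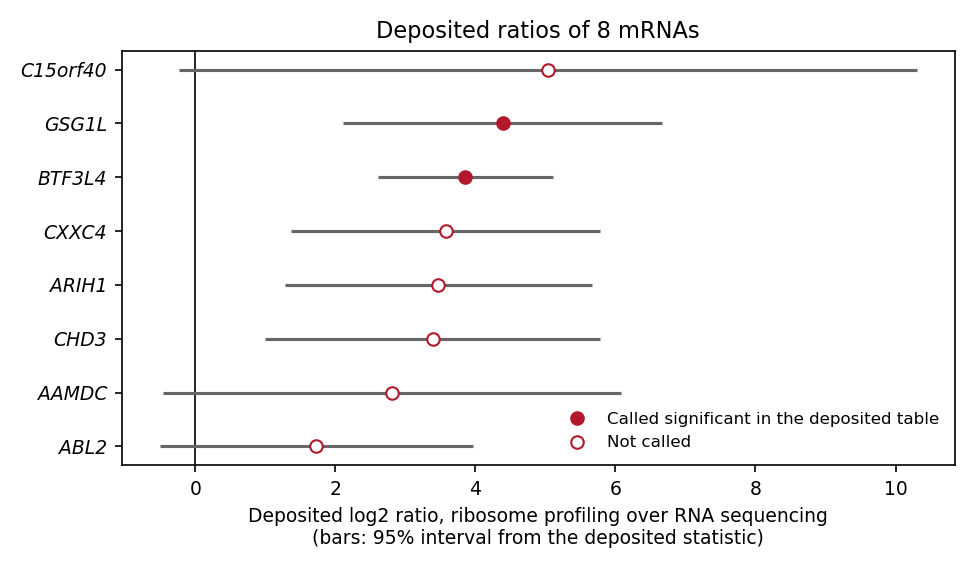
Log2 of the ribosome profiling value divided by the RNA sequencing value, from the authors' deposited table for the 8 members with a finite ratio, with 95% intervals from the deposited statistic (horizontal bars). Filled points (GSG1L and BTF3L4) were called significant there, and the intervals of C15orf40, AAMDC and ABL2 cross 0.

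How few fragments can lie behind such a value shows in the steps of the deposited ratios. The most frequent finite log2 ratio in the authors' deposited table was 0.64, shared by 378 rows, and the next was -0.36, shared by 217 rows. The 12 most frequent ratios all equalled 1.56 times a ratio of small whole numbers, so 1 fragment was worth 1.56 times as much FPKM in ribosome profiling as in RNA sequencing. Among rows above 0 in both libraries with a mean under 3 FPKM, 47.3% of 4375 matched such a pair with a sum of at most 20 (within 2e-05 on the log2 scale). AAMDC matched 9 fragments in ribosome profiling and 2 in RNA sequencing. If these are the true numbers and not a multiple of them, the exact (Clopper-Pearson) 95% interval of their ratio runs from 0.931 to 42.8, for counting error only. As a ratio of FPKM values, with the factor of 1.56, that interval runs from 1.45 to 66.8. No other member matched a pair of this size, and the number of fragments behind their values is unknown.

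Whether another gene at the same place could lend its reads was examined next. Only CHD3 shares its locus with a small RNA. The row for SCARNA21, a small RNA of Cajal bodies, has the same coordinates as CHD3, chromosome 17 from 7788123 to 7816075 in hg19. It was listed at 0 in ribosome profiling and had 458 FPKM in RNA sequencing, so its values go the other way from those of CHD3. The row of C15orf40 has the same coordinates as that of the protein-coding gene FAM103A1, chromosome 15 from 83654955 to 83680393. FAM103A1 had 8.60 FPKM in ribosome profiling and 10.1 FPKM in RNA sequencing. Rows with the same coordinates need not be genes that cover the same span, so shared coordinates do not show which bases are shared. No row overlaps the loci of GSG1L (chromosome 16, 27798850 to 28074830), ABL2 (chromosome 1, 179068462 to 179198819), CXXC4 (chromosome 4, 105389463 to 105416058), ARIH1 (chromosome 15, 72766667 to 72878896), BTF3L4 (chromosome 1, 52521857 to 52556388), AAMDC (chromosome 11, 77532208 to 77583398) or CETN2 (chromosome X, 151995871 to 151999301).

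Rows within 10 kb of a member were low. The microRNA gene MIR630 starts 662 bases past the end of the ARIH1 locus and was listed at 0 in both libraries, as was MIR4515 beside C15orf40. NSDHL, an enzyme of cholesterol synthesis that begins 210 bases past CETN2, had 2.86 FPKM in ribosome profiling and 1.83 FPKM in RNA sequencing. The highest of these 12 rows in ribosome profiling was TXNDC12, with 11.05 FPKM in ribosome profiling and 4.30 FPKM in RNA sequencing. Its row ends 14 bases before that of BTF3L4 and has the same coordinates as the row of KTI12. Which strand the reads came from is not given in the sources used here.

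Protein-coding genes were then split by whether a small RNA row overlaps them. Of 177 tested genes whose locus overlaps a small RNA row, 1 (0.565%), which is CHD3, lay 4-fold or more above the median. Of the 2082 without such a row, 34 were (1.63%). The median log2 ratio was -0.13 in genes with a small RNA row and 0.050 in genes without one.

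The triplet run was looked for in the 2165 tested protein-coding genes with a coding transcript in GENCODE, after the values had been seen, so the counts below are a description. A run of at least 21 bases was present in 62 of them (2.86%). Of these 62, 16 lay 4-fold or more above the median (25.8%), against 19 of the 2103 genes without a run (0.903%). With the 9 members left out, the counts were 11 of 56 (19.6%) and 16 of 2100 (0.762%). Of these 11 genes with a run, all but ZIC5, WIPF2 and ZFHX3 had under 10 FPKM in RNA sequencing. They passed the filter through ribosome profiling alone, where they were therefore obliged to be the higher. The same filter applied to the genes without a run. A larger share of genes with a run also lay low: 22.6% of the 62 lay 2-fold or more below the median, against 14.3% of the 2103. The lowest log2 ratio, -10.7, was that of a gene without a run. By the family of the run on the mRNA strand, 9 of 28 genes with GCC and 7 of 34 with GGC were at least 4-fold above.

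The 24-base stretch drew a narrower group. On either strand, 10 of the 2165 genes hold it (0.462%), and all 10 lay 2-fold or more above the median, against 208 of the 2155 that lack it (9.65%). They lay from 2.51-fold above for ABL2 to 15.3-fold above for GSG1L, and 7 of the 10 were at least 4-fold above. The stretch was read from 5 members that had been chosen for their ratios, so their part of the count was fixed beforehand. With the members left out, 5 of 5 holders lay 2-fold or more above, against 204 of 2151 genes without it (9.48%), and 3 of the 5 lay 4-fold or more above. Among these 5, ZIC5, a zinc-finger transcription factor, had 139 FPKM in ribosome profiling and 12.1 FPKM in RNA sequencing, 8.14-fold above. WIPF2, which binds the actin regulator N-WASP, had 120 FPKM in ribosome profiling and 13.02 FPKM in RNA sequencing, 6.60-fold above. ZFHX3, a homeodomain transcription factor, had 159 FPKM in ribosome profiling and 25.7 FPKM in RNA sequencing, 4.58-fold above. POU4F2, a transcription factor of retinal ganglion cells, had 20.3 FPKM in ribosome profiling and 3.40 FPKM in RNA sequencing, 3.70-fold above. Of the 10, 9 had at least 10 FPKM in RNA sequencing. For these, a ribosome profiling value no higher than the RNA sequencing value was enough to pass the filter. POU4F2 passed it through ribosome profiling alone, which obliged it to have a high ratio. Its part of the 5 of 5 was therefore fixed by the filter. Of 4 further holders with a mean of 1 to 10 FPKM, 1 lay 2-fold or more above the median gene (25%), against 3.47% of the 7197 genes at that level, and 1 lay 2-fold or more below it.

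**Figure D4:**
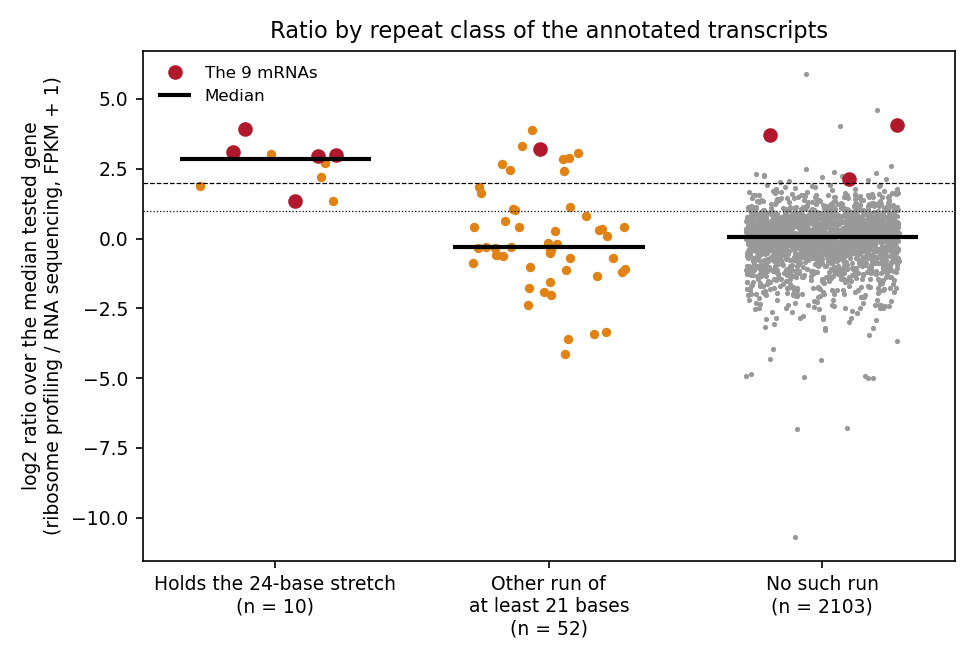
Log2 ratio, computed from FPKM + 1 and set to 0 at the median tested gene, for genes that hold the 24-base stretch (n = 10), genes with another GGC or GCC run of at least 21 bases (n = 52) and genes with no such run (n = 2103), with the median of each class as a bar and dotted and dashed lines at 2-fold and 4-fold above. The first class lies wholly above the dotted line, the second spreads from -4.15 to 3.89, and CETN2, listed at 0 in RNA sequencing, is drawn at its value with the pseudocount.

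With fewer GGC units after GGT the stretch is held by more genes. With 5 units 12 of 20 holders were at least 2-fold above, with 6 units 11 of 12, and with 8 units 5 of 5. With the members left out these counts were 7 of 15 (46.7%), 6 of 7 and 4 of 4. The sets are nested, because a longer stretch contains the shorter ones, so these counts are not separate observations. Each includes POU4F2, whose place above the median was fixed by the filter. RNA5-8S5, which codes for a ribosomal RNA, had 4180970 FPKM in ribosome profiling and 157223 FPKM in RNA sequencing, and the row of the ribosomal RNA precursor RNA45S5 was listed at 0 in both libraries with the status HIDATA. Whether fragments of ribosomal RNA count towards genes with GGC runs was not tested.

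In base composition the members spanned both sides of the median gene, from 38.4% GC in the longest coding transcript of BTF3L4 to 56.1% in that of CHD3, against a median of 50.7%.

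Relatives and partners of the members were set beside them, from 7 lists. In the NuRD complex, 7 of 15 genes were tested. The 6 apart from CHD3 had a median log2 ratio of 0.26, with 0 at least 2-fold above and 1 below. With a filter of 1 FPKM in place of 10 FPKM, 3 were above and 5 below, and the median was -0.0088. CHD4, the ATPase that takes the place of CHD3 in other NuRD complexes, had 23.5 FPKM in ribosome profiling and 18.7 FPKM in RNA sequencing, 1.05-fold below the median gene. The deacetylases HDAC1 and HDAC2 were 1.51-fold and 1.75-fold above, RBBP7 1.60-fold above and MTA2 1.32-fold below. CDK2AP1 was the lowest of the 6 that passed the filter of 10 FPKM, with 5.43 FPKM in ribosome profiling and 24.7 FPKM in RNA sequencing, 5.24-fold below. Some genes of the list that did not pass it lay further below.

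Among the subunits of the nascent polypeptide-associated complex, BTF3 had 93.3 FPKM in ribosome profiling and 80.4 FPKM in RNA sequencing, 1.13-fold below the median gene, where its relative BTF3L4 was 9.18-fold above. NACA was 1.07-fold below and NACA2 1.66-fold above. In the list of centrins and their partners, CETN3 had 45.5 FPKM in ribosome profiling and 6.40 FPKM in RNA sequencing, 4.80-fold above. Of all the tested genes in the 7 lists that are no members, it was the only one at least 4-fold above. CETN3 passed the filter on mean FPKM through ribosome profiling alone, which obliged it to have the higher value there, so nothing is read from its ratio. The DNA repair protein RAD23B, a partner of XPC as CETN2 is, was 1.97-fold below.

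For the other members few relatives were abundant enough. The adaptor CRK, a substrate of ABL kinases, had 4.01 FPKM in ribosome profiling and 16.9 FPKM in RNA sequencing, 4.68-fold below, and the actin-binding protein CTTN was 1.07-fold below. RBX1, the RING subunit of the cullin ligases that ARIH1 works with, had 47.9 FPKM in ribosome profiling and 17.3 FPKM in RNA sequencing, 2.04-fold above. DNMT1, a DNA methyltransferase with a CXXC domain, was 1.08-fold above. Beside GSG1L, none of the AMPA receptor subunits and partners on its list was tested. The ionotropic receptor genes GRIA1, GRIA2, GRIA3 and GRIA4 were listed at 0 in both libraries. Neither CETN3 nor any other of these relatives was called significant in the authors' deposited table. The background for these relatives is that 10% of tested protein-coding genes lay 2-fold or more above the median and 14.5% lay 2-fold or more below it. Among all tested genes these shares were 13.1% and 19.7%.

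The genes most like each member, by distance in log2(FPKM + 1) over the 2 libraries, were found among other tested rows outside the small RNAs. The nearest row to ABL2 was COX6B1 at a distance of 0.045, to CETN2 PAM16 at 0.028, and to AAMDC PAGE2 at 0.11. C15orf40 lay nearest to SLCO3A1 and HS3ST4, both of which have a GGC run, and CXXC4 nearest to RPL21P28 and ZIC5. ARIH1 lay nearest to RPL21P28 and PET100, and BTF3L4 to SEPHS1 and CETN3. ISG15 and IFI6 were the nearest rows to both GSG1L and CHD3, at 1.12 and 1.26 from GSG1L and at 0.51 and 0.85 from CHD3. ISG15 and IFI6 are interferon-induced genes. With 1 library per assay these distances rest on 2 values a gene.

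The identity of the cells was checked against markers. All 8 adrenal steroid synthesis genes looked for, NR5A1, STAR and CYP11A1 among them, were listed at 0 in both libraries. The intermediate filament VIM had 707 FPKM in ribosome profiling and 490.2 FPKM in RNA sequencing. In the same order, the keratin KRT18 had 139 and 57.2 FPKM and the keratin KRT8 had 69.7 and 41.9 FPKM. The third epithelial gene looked for, EPCAM, was listed at 0 in both libraries. SMARCA4, a chromatin remodeller that SW13 is known to lack, had 0.68 FPKM in ribosome profiling and 3.99 FPKM in RNA sequencing. SMARCA2, also looked for as a gene low in this line, had 1.75 FPKM in ribosome profiling and 1.72 FPKM in RNA sequencing. The label of the line is used as given.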

How the data were processed

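Libraries were read as 50 nt pairs, per the labels' protocols. The authors' table, used as deposited, holds 1 value per gene row and library, whose header names no unit and which was read as FPKM from its layout and values. The deposited log2 ratio, the test statistic (a score of opposite sign to the ratio), the p-value and the q-value are the authors' own. Per the submitters' processing notes, hg19 and mm10 were the builds and the tools were bedtools 2.16.1, SAMtools 0.1.18, TopHat2 2.0.8b and Bowtie2 2.0.0.6. Their roles and the treatment of reads that match several places are not stated in these sources. Coordinates follow the table.

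Each ratio was the log2 of ribosome profiling over RNA sequencing after adding 1 FPKM to both, which makes low genes look less changed. The median of 0.39 over tested genes, with a mean of at least 10 FPKM and no status FAIL or HIDATA, was then subtracted. With 1 library per group no test was made, and the depth behind most values is unknown. RefSeq gave gene classes by symbol or synonym and left 926 rows unmatched. GENCODE 29 gave transcripts. It may differ from the authors' annotation, and genes with more transcripts had more chances to hold a run. Runs and stretches were searched on both strands. The ratio was tested on simulated data. Python 3.11.15, pandas 2.3.3 and scipy 1.17.1 were used.

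The text names the members, rows that overlap them, the 15 protein-coding genes of highest ratio, tested genes of the lists (some are not reported here), the 2 nearest rows of each member, and GAPDH and ACTB. Genes named for a run or stretch and rows within 10 kb were chosen after their values were seen. The members and lists were chosen with earlier results of these data known. Other pseudocounts, filters, centrings and overlaps were tried, and other lengths of run and stretch were added after seeing the data.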

Additional observations from a re-analysis of the deposited data

How the results depend on the processing

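Under all 9 planned settings each of the 8 members above 0 in both libraries kept a ratio above the median gene where it was tested, and with a filter of 30 FPKM AAMDC and C15orf40 were not tested, nor was CETN2. Their log2 ratios ranged from 3.76 to 4.61 for GSG1L, 2.79 to 3.64 for CHD3, 2.90 to 3.78 for CXXC4, 2.81 to 3.68 for ARIH1, 2.55 to 3.87 for BTF3L4, 2.36 to 4.50 for C15orf40, 1.496 to 2.80 for AAMDC and 1.15 to 2.002 for ABL2. A value without replicates was taken as moved when it changed by over 1.5-fold.

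With filters of 1 FPKM, of 30 FPKM and none, genes at least 2-fold above numbered 1681, 182 and 2332 (main 358), those at least 2-fold below 2127, 261 and 2180 (main 538), and those at least 4-fold below 647, 178 and 544 (main 268). Those at least 4-fold above numbered 343 with a filter of 1 FPKM and 399 with none (main 133). Fewer or more genes pass such filters by construction. Without centring 645 genes were at least 2-fold above.

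The share at least 4-fold above among genes with a small RNA row was 1.51%, 1.30% and 1.57% with those 3 filters, 1.13% without centring and 0% with only small RNA rows above 0 in ribosome profiling. Among genes without one it was 0.961% with a pseudocount of 5 and 2.93% without centring. Among genes with a GGC or GCC run it was 11.1%, 52.6% and 9.79% with those 3 filters. The share among genes without a run was not computed for those filters. Genes low in RNA sequencing pass a filter of 30 FPKM only through ribosome profiling, where they are obliged to be the higher. For a run of 15 bases the share was 10.9%, against 0.896% of genes without one. For the stretch, 60% of holders were at least 2-fold above with 5 units. The cause of these moves was not tested. The median of the ABL partners without ABL2 was -1.16, and 0.090 with no filter. In the NuRD list without CHD3, 3 genes were at least 2-fold above and 4 below with no filter, and 2 were above without centring (main 0 above and 1 below). No paired analysis was possible because each assay has 1 library. The depth behind most values is unknown.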

Other observations

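Other genes with a GGC or GCC run but without the 24-base stretch lay both far above and far below the median tested gene. SLC31A2, a copper transporter family member, had 52.8 FPKM in ribosome profiling and 1.76 FPKM in RNA sequencing, and the organic anion transporter SLCO3A1 had 36.9 and 1.88 FPKM in the same order. GAS6, a ligand of TAM receptors, had 41.7 FPKM in ribosome profiling and 3.37 FPKM in RNA sequencing, and the ion channel HCN2 had 32.9 and 3.11 FPKM. SLC31A2, SLCO3A1, GAS6 and HCN2 passed the filter on mean FPKM through ribosome profiling alone, which obliged them to have a high ratio. At the low end, the ubiquitin-conjugating enzyme UBE2B had 1.78 FPKM in ribosome profiling and 36.8 FPKM in RNA sequencing, with a run of 32 bases, and CMTM4 had 1.89 and 26.04 FPKM with a run of 28 bases. CARM1, an arginine methyltransferase with a run of 50 bases, had 8.44 FPKM in ribosome profiling and 14.2 FPKM in RNA sequencing.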
